A study of Mus musculus with 5 samples.

Results

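The aminoacyl-tRNA synthetase genes were followed in bulk RNA-seq of luminal cells sorted from the mouse mammary gland, in 5 libraries. The set was fixed by gene symbol. It holds 20 genes of the cytosolic enzymes and 16 genes of the mitochondrial enzymes, whose symbols end in 2, and all 36 were found among the 24319 named genes of the deposited table. By the study's methods, the libraries were made from cells sorted as DAPI-, CD24-high and CD29-low, the gate for luminal epithelium, the cells that line mammary ducts and alveoli. The sample labels name luminal cells as the source, although the extraction text attached to them is written for tumors. Their values are FPKM, fragments scaled to transcript length and to the mapped fragments of the library, so levels of different genes could be set side by side per length. Lum1, Lum2 and Lum3 carry the genotype label wild type, and Lum4 and Lum5 the label *Brca1* knockout. All 5 came from mice of mixed C57BL/6 and 129/Sv background. In the study's model the floxed *Brca1* alleles are removed by Cre under the MMTV promoter, so deletion is limited to cells in which that promoter has been active, and the study refers to the luminal side of its bulk comparison with tumors as BRCA1-deficient, against the label of Lum1 to Lum3. The age of the animals and the stage of the gland (virgin or pregnant) were not given for single libraries, and nothing states that the libraries came from separate animals, so the p-values below measure only the spread between these libraries.

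Each of these enzymes attaches an amino acid to its matching tRNA, and the charged tRNA then brings that amino acid to the ribosome. Mammalian cells keep a cytosolic set and a mitochondrial set, both encoded in the nucleus. *Gars* (glycine) and *Kars* (lysine) are exceptions, each giving both the cytosolic and the mitochondrial enzyme. In the cytosol 8 of the enzymes (*Dars*, *Eprs*, *Iars*, *Kars*, *Lars*, *Mars*, *Qars* and *Rars*) sit in the multi-synthetase complex. Many cytosolic synthetase genes are targets of Atf4, the transcription factor that cells make when amino acids run short or protein synthesis is stressed, and the lactating mammary gland makes large amounts of milk protein.

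Luminal keratins marked every library. *Krt8* ranged from 2240.2 to 3653 FPKM and *Krt18* from 1490.2 to 2869 FPKM, while *Adipoq*, a fat cell gene, was at or near 0 throughout. The libraries were not alike in other markers. The summed level of 5 fibroblast markers was 2.92, 3.78 and 12.1 FPKM in Lum1, Lum4 and Lum5 but 105 in Lum2 and 82.7 in Lum3, and the summed level of 5 immune markers lay between 1.48 and 5.04 FPKM in Lum1, Lum4 and Lum5, at 224 in Lum2 and at 39.9 in Lum3. Lum3 stood apart in its luminal program as well. It had the lowest median of 7 milk protein genes (10.76 on the log2(FPKM + 1) scale, against 12.43 to 13.59), the lowest median of 10 proliferation genes (0.62 against 3.04 to 3.93) and the highest median of 5 mature luminal markers (5.11 against 1.29 to 2.001). Across the 11481 genes that averaged 1 FPKM or more, Pearson's r of log2(FPKM + 1) was 0.805 to 0.829 for Lum3 with the other libraries and 0.886 to 0.935 among the others, genes not being independent replicates. Results below are therefore given with and without Lum3 where they rest on it. In bulk RNA, fewer cells of a type and less RNA per cell cannot be told apart. *Brca1* itself had 1.30, 1.32, 0.234, 1.20 and 1.34 FPKM from Lum1 to Lum5, which does not separate the labels (log2 fold change 0.27, SE 0.38, adjusted p = 0.94 by limma with Benjamini-Hochberg adjustment). Whether single exons are missing cannot be read from a value per gene.

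The promoter sequences that hold the letters read by Atf4 are shown first, because the later comparison of libraries uses a list of genes taken as responsive to Atf4. RefSeq promoter windows (build GRCm38.p6, 250 bases before to 50 after each start) were at hand for 26 of the 36 genes, 12 cytosolic and 14 mitochondrial. *Cars*, *Hars*, *Hars2*, *Lars*, *Mars*, *Nars*, *Pars2*, *Rars*, *Vars* and *Wars* had no matched window. Each window was searched on both strands for TGATGNAA, the core letters of the amino acid response element to which Atf4 binds with a partner. The letters were found in *Aars*, *Gars*, *Iars*, *Tars* and *Yars*, which is 5 of 12 cytosolic genes with a window (41.7%), and in 0 of 14 mitochondrial genes. Of all 32851 windows of this length, 3.97% held them. A gene was counted once if any of its windows held the letters, while this share was taken per window. The units therefore differ, since a gene with several windows has more places for a match. All 5 genes belong to the 12 cytosolic genes listed here as Atf4-responsive, of which 7 had a window. The other 5 cytosolic genes with a window held none. The list was chosen with earlier results of these data known. Whether its genes were first named as responsive because of these letters was not examined, so the match is a description only. For comparison, 21 Atf4 targets that are not synthetases had a window, and 7 of these genes held the letters (33.3%). Among them were *Asns*, which makes asparagine, and *Trib3* and *Chac1*, which are switched on in amino acid stress. In 4 of the 5 synthetase genes, all but *Gars*, the fuller form TGATGCAA was present, which 0.895% of all windows held. Of the stretches below, written 5′ to 3′ in the direction of the gene, the capitals mark TGATGNAA or its reverse complement.
Aars, chr8:111033704-111033763, plus strand gene, letters 105 to 112 bases before the start: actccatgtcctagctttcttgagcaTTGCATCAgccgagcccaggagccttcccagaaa
Aars, chr8:111033840-111033869, plus strand gene, letters 9 to 16 bases after the start: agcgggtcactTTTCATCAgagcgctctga
Gars, chr6:55037945-55038000, plus strand gene, letters 23 to 30 bases before the start: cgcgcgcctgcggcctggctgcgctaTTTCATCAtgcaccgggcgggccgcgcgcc
Iars, chr13:49682126-49682155, plus strand gene, letters 7 to 14 bases after the start: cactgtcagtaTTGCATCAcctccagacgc
Tars, chr15:11399659-11399699, minus strand gene, letters 8 to 15 bases before the start: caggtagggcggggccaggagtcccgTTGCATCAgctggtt
Yars, chr4:129189895-129189924, plus strand gene, letters 3 to 10 bases after the start: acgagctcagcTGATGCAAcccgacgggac
In *Yars* the letters read forward, and in the other 4 genes as the reverse complement, once in each except in *Aars*, which held them at 2 places. A match is a description of the letters and not evidence that a factor bound there in these cells.

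Other letters were searched after the values had been seen, again counted by gene and set beside shares taken per window. GGGCGG, the GC box, was in 19 of the 26 genes (73.1%, against 35.7% of all windows), with 8 of 12 cytosolic and 11 of 14 mitochondrial genes. CCGGAAG, the core recognised by Ets factors, was in 8 of 26 (30.8% against 8.86%), with 4 genes on each side. The Nrf1 motif was in 5 of 26 (19.2% against 4.60%) and CACGTG, the E box, in 5 of 26 (19.2% against 7.15%), 4 of 12 cytosolic and 1 of 14 mitochondrial. Of these, *Aars*, *Iars* and *Tars* carried both the E box and the Atf4 letters.

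Cytosolic synthetase genes were expressed at a higher level than mitochondrial ones in every library. The median over the 20 cytosolic genes was 5.13, 5.12, 4.26, 4.98 and 5.04 on the log2(FPKM + 1) scale in Lum1 to Lum5, and the median over the 16 mitochondrial genes was 3.17, 3.04, 1.99, 2.997 and 3.10. The difference was 1.96, 2.08, 2.27, 1.98 and 1.94, a mean of 2.04 ± 0.14 (SD, n = 5), and was 1.99 ± 0.06 without Lum3. The SDs of the medians themselves were 0.37 and 0.49, and 0.07 and 0.08 without Lum3, so the steadiness of the difference beside the medians rested on Lum3. In FPKM, all 20 cytosolic genes had a mean above 10, while 12 of the 16 mitochondrial genes had a mean under 10. The exceptions were *Lars2*, *Iars2*, *Fars2* and *Tars2*. Of the 36 genes, 35 were above 1 FPKM in every library, and the exception was *Pars2*.

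**Figure D1:**
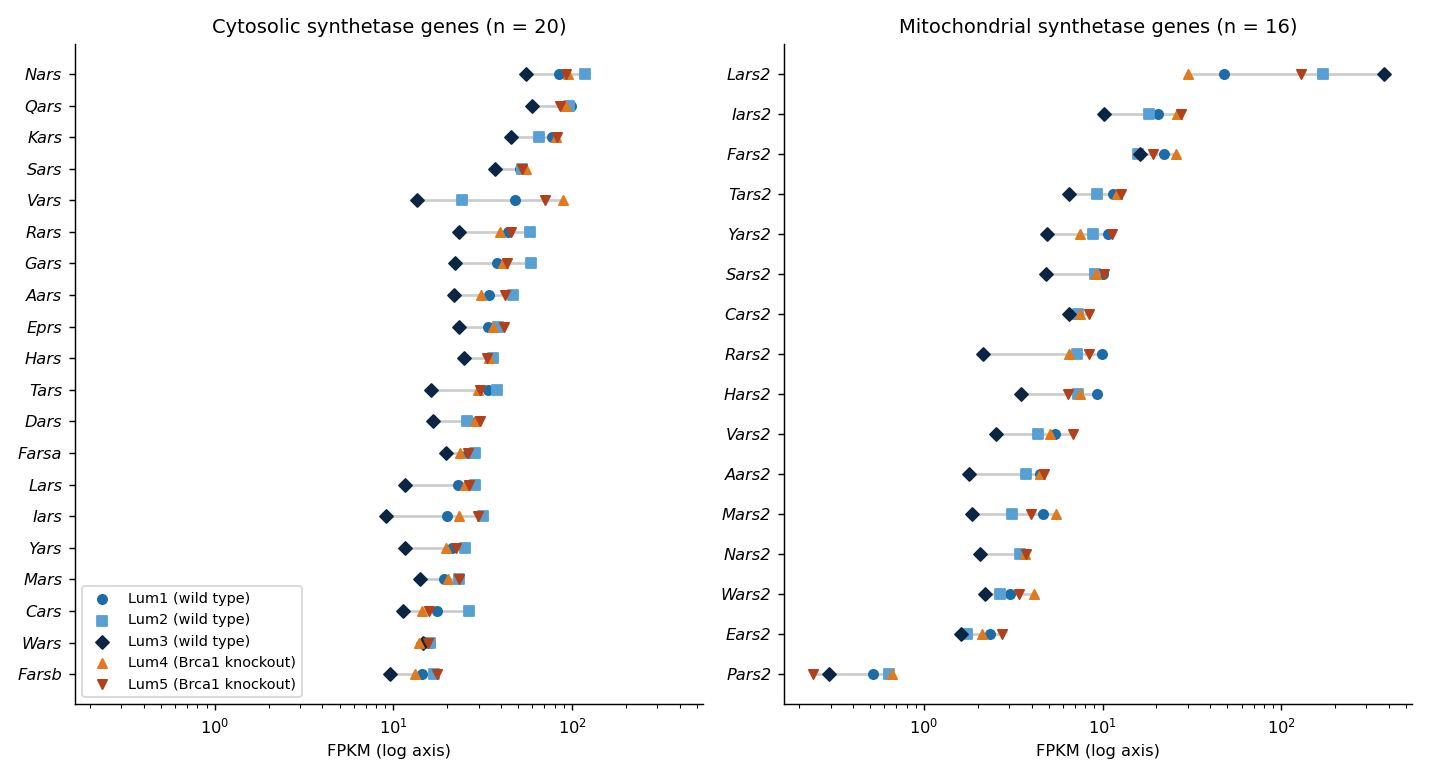
FPKM of the 20 cytosolic (left) and 16 mitochondrial (right) synthetase genes on a log axis, ordered by mean, with 1 symbol per library and a grey line from the lowest to the highest. Lum3 (dark diamonds) is the lowest point for most genes of both sets, *Lars2* has the widest spread, and *Vars* the widest of the cytosolic set.

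The top of the cytosolic set was taken by *Nars* (asparagine), *Qars* (glutamine) and *Kars* (lysine). *Nars* was at 84.4, 119, 55.1, 94.7 and 92.7 FPKM in Lum1 to Lum5, a mean of 89.1 ± 23.0 (SD, n = 5). *Qars*, which has no mitochondrial partner because mitochondria obtain glutaminyl-tRNA by converting glutamyl-tRNA, was at 98.1, 96.3, 60.01, 92.0 and 85.6 FPKM (mean 86.4 ± 15.5). *Kars*, the gene that serves both compartments, was at 77.3, 65.1, 45.5, 81.1 and 82.9 FPKM (mean 70.4 ± 15.5). *Nars* and *Qars* changed places between libraries, while *Kars* was below both in all 5. *Gars*, the other gene with both products, was at 37.9, 58.9, 22.1, 41.1 and 43.3 FPKM. Leaving *Gars* and *Kars* out moved the difference between the sets only to 1.94.

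The lowest cytosolic genes were *Farsb*, a chain of the phenylalanine enzyme, at 14.3 ± 3.20 FPKM, *Wars* (tryptophan) at 15.2 ± 0.96 and *Cars* (cysteine) at 17.2 ± 5.69, and the order of these 3 changed between libraries. *Wars* was the steadiest gene of the set, with 16.1, 15.98, 14.7, 13.8 and 15.6 FPKM. It is inducible by interferon in many cell types. The median of 11 interferon genes was highest in Lum5 (5.84 against 3.22 to 4.68 on the log2(FPKM + 1) scale), while *Wars* in Lum5 stayed within the range of the other libraries. Of these 11 genes 8 were highest in Lum5 and 3 in Lum1, the library in which *Wars* was highest as well. The part of interferon in the *Wars* level was not tested.

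The 8 genes of the multi-synthetase complex had a median of 5.03, 5.17, 4.37, 5.05 and 5.20 on the log2(FPKM + 1) scale. The genes of its scaffold, which carry no tRNA-charging activity, sat at nearly the same level, with a median of 5.17, 5.12, 4.39, 5.08 and 4.99. Of the scaffold genes *Aimp1* was highest, at 80.4, 58.1, 36.3, 74.7 and 57.2 FPKM. *Aimp2* was at 34.9, 33.9, 19.96, 32.9 and 30.8 FPKM and *Eef1e1* at 18.6, 25.4, 12.2, 15.1 and 18.2 FPKM. Within the complex, *Qars* and *Kars* led. *Mars* (methionine) had the lowest mean, with 19.1, 23.2, 14.2, 20.1 and 23.2 FPKM, but *Iars* and *Lars* were lower still in Lum3 and their means lay within 1 SD of that of *Mars*. *Eprs*, a fused enzyme that charges glutamate and proline, was at 34.0, 38.6, 23.3, 36.1 and 41.7 FPKM. By catalytic fold, the 9 class I genes had lower medians (3.86 to 4.78) than the 10 class II genes (4.52 to 5.43) in every library.

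Among the mitochondrial genes, *Lars2* (leucine) had the highest mean, followed by *Iars2* (isoleucine) at 20.5 ± 6.98 FPKM and *Fars2* (phenylalanine) at 19.7 ± 4.20 FPKM, which lay within each other's spread. *Tars2* (threonine) followed at 10.4 ± 2.55 FPKM. At the foot of the order, *Ears2* (glutamate) was at 2.34, 1.73, 1.61, 2.11 and 2.74 FPKM in Lum1 to Lum5. *Pars2* (proline) was at 0.517, 0.638, 0.293, 0.660 and 0.238 FPKM, below the minimum for the test between labels. The remaining 10 mitochondrial genes had means between 3.08 (*Wars2*) and 8.64 FPKM (*Sars2* and *Yars2*). *Cars2* was the steadiest of the set at 6.91, 7.31, 6.52, 7.48 and 8.40 FPKM. The genes that work with these enzymes in mitochondrial translation (14 of 15 listed were in the table) had medians of 2.64, 2.51, 1.999, 2.68 and 2.64 on the log2(FPKM + 1) scale, near those of the synthetases. The elongation factor *Tufm*, which delivers charged tRNA to the mitochondrial ribosome, was well above them, at 52.3, 44.7, 24.7, 45.9 and 48.7 FPKM.

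For 14 amino acids the cytosolic and the mitochondrial enzyme are encoded by separate genes, which allows a comparison within the amino acid. The cytosolic gene was higher in all 5 libraries in 11 pairs, and the median of the 14 pair means was 2.08 on the log2(FPKM + 1) scale. The widest gap was between *Nars* and *Nars2*, at 4.23, 4.76, 4.20, 4.35 and 4.31, a mean of 4.37 ± 0.23. *Aars* exceeded *Aars2* by 2.91 ± 0.31 and *Vars* exceeded *Vars2* by 2.86 ± 0.75. The smallest gaps among the 11 were *Cars* over *Cars2* by 1.08 ± 0.41, *Yars* over *Yars2* by 1.13 ± 0.21 and *Tars* over *Tars2* by 1.42 ± 0.31. The gaps of *Cars* and *Yars* therefore overlapped, and both lay below that of *Nars* in every library.

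In 2 pairs the order changed between libraries. *Iars* minus *Iars2* was -0.03, 0.77, -0.14, -0.16 and 0.11 in Lum1 to Lum5, a mean of 0.11 ± 0.38. The mean of *Farsa* and *Farsb*, the chains of the cytosolic phenylalanine enzyme, minus *Fars2*, which works as a single chain, was -0.18, 0.46, -0.21, -0.51 and 0.17, a mean of -0.05 ± 0.38. Neither mean differed from 0 by more than its spread, so no steady order was seen in these pairs. Equal levels are not shown by this. In *Iars2* 22.9% of exonic bases (2034) overlap exons of *Rab3gap2* on the opposite strand, and since strand handling is not given in the sources used here, reads of these genes cannot be told apart there. *Rab3gap2* was at 13.1, 11.01, 6.51, 9.98 and 10.3 FPKM. In *Fars2* 8.72% of exonic bases overlap *Nrn1*, which was listed at 0 in every library.

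**Figure D2:**
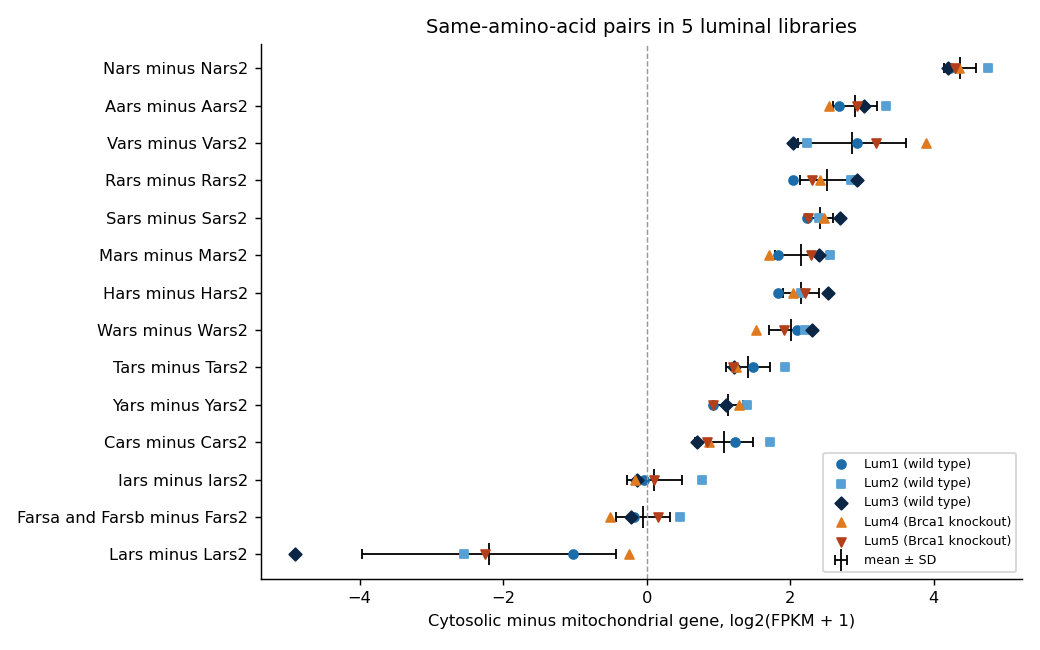
Cytosolic minus mitochondrial gene on the log2(FPKM + 1) scale for the 14 same-amino-acid pairs, with 1 symbol per library and the mean ± SD over 5 libraries in black. Of the pairs, 11 lie right of 0 in all libraries, *Iars* and the *Farsa* and *Farsb* pair straddle 0, and *Lars* minus *Lars2* lies left of 0 with the widest spread.

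In 1 pair the mitochondrial gene was higher throughout. *Lars* (leucine), which also takes part in leucine sensing, was at 22.9, 28.7, 11.6, 25.2 and 26.4 FPKM. *Lars2* was at 47.9, 172, 376, 30.1 and 129 FPKM. The difference ran from -0.25 in Lum4 to -4.90 in Lum3, with a mean of -2.19 ± 1.77. *Lars2* was thus the only synthetase gene that was highest in Lum3. Its level changed 12.5-fold from Lum4 to Lum3, against 6.63-fold over the 5 libraries for *Vars* and 4.60-fold for *Rars2*. Over Lum1, Lum2, Lum4 and Lum5 *Lars2* ran from 30.1 to 172 FPKM, while 33 of the 36 genes stayed within 2-fold. The summed FPKM of the mitochondrial set followed *Lars2* (173, 274, 443, 158 and 259 in Lum1 to Lum5). Without *Lars2* that sum was 125, 102, 67.0, 128 and 130, and the difference between the set medians was 2.16 ± 0.16.

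The *Lars2* level rests on a gene (ENSMUSG00000035202, GRCm38 chr9:123366927-123462666, plus strand, 21 exons) whose 3' untranslated region holds a stretch found elsewhere. In the last exon, 52 bases (chr9:123462048-123462099) were identical to a stretch of *Gm15564*, annotated as an antisense gene at chr16:35966752-35983230. *Gm15564* was not among the table's gene names. None of the other members shared a stretch of at least 20 bases with *Gm15564*, and none shared such a stretch with the mitochondrial rRNA genes *mt-Rnr1* and *mt-Rnr2*. *Rn45s*, the 45S ribosomal RNA precursor, was looked at after the *Lars2* values had been seen. It was at 312, 589, 1419.8, 169.8 and 386 FPKM, and so had the same order of libraries as *Lars2*, from Lum4 through Lum1, Lum5 and Lum2 to Lum3. The part of ribosomal RNA or of the shared stretch in the *Lars2* level was not tested.

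**Figure D3:**
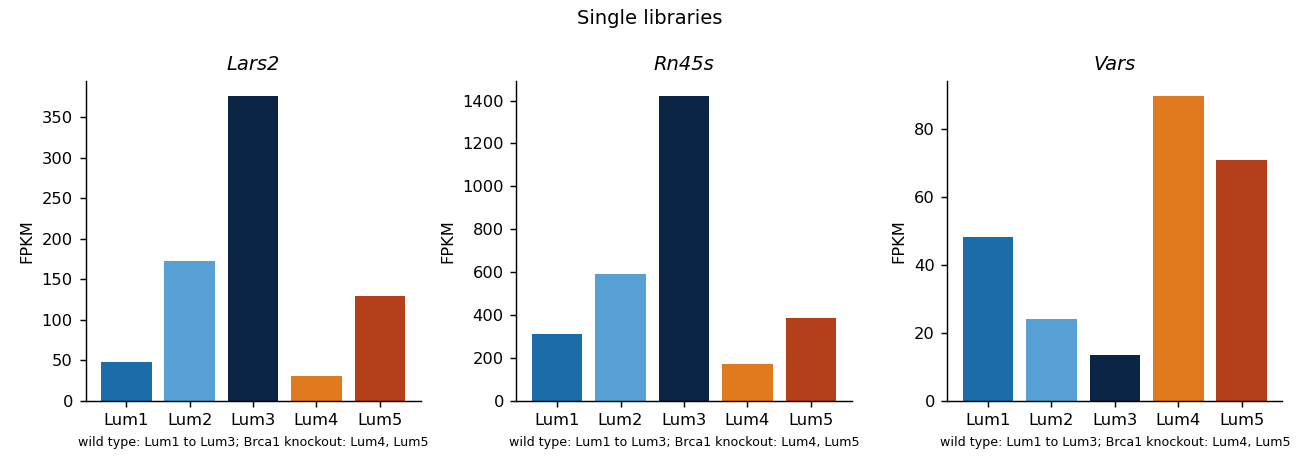
FPKM in each library of *Lars2*, of the ribosomal RNA precursor *Rn45s* and of *Vars*, each on its own axis starting at 0, with blue bars for the libraries labelled wild type and orange and red bars for those labelled *Brca1* knockout. *Lars2* and *Rn45s* are lowest in Lum4 and highest in Lum3, and *Vars* is higher in both libraries labelled *Brca1* knockout than in any labelled wild type.

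Lum3 had less of nearly every synthetase transcript. Of the 35 members that passed the minimum of 1 FPKM in mean, 32 were lowest in Lum3, 19 of 20 cytosolic and 13 of 15 mitochondrial, against 51.8% of all 11481 genes tested. *Wars* was lowest in Lum4 and *Fars2* in Lum2. Highest in Lum3 was 1 member, *Lars2*, against 18.5% of all genes. The median difference between Lum3 and the mean of the other 4 libraries was -0.74 on the log2(FPKM + 1) scale over the cytosolic genes (range -1.88 for *Vars* to -0.06 for *Wars*) and -0.84 over the mitochondrial genes (range -1.50 for *Rars2* to 2.30 for *Lars2*). Over all genes tested it was -0.27. Dividing each library by its median-of-ratios size factor brought the shift of all genes to -0.03, and those of the cytosolic and mitochondrial genes to -0.47 and -0.60, with 18 and 11 members lowest in Lum3 (34.8% of all genes). Lum3 was singled out by its values, so this is a description without a test.

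The members differed in how far below the others Lum3 lay. *Iars* was at 20.1, 31.6, 9.13, 23.3 and 29.8 FPKM in Lum1 to Lum5, a difference of -1.40. *Rars2* (arginine) was at 9.89, 7.19, 2.15, 6.51 and 8.44 FPKM, with Lum3 well below the range of the others. *Lars* differed by -1.08 and *Iars2* by -1.09. At the other end, *Farsa* was at 26.1, 28.7, 19.8, 23.6 and 26.2 FPKM, a difference of -0.38, and *Cars2* differed by -0.18. All 8 genes of the complex, with differences of -1.40 to -0.56, and all 3 scaffold genes, with -0.86 to -0.59, were lowest in Lum3.

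Related genes outside the set were not all placed alike. The counts below stand against 51.8% of all genes tested that were lowest in Lum3. Of the Atf4 targets that are not synthetases, 18 of 22 were lowest in Lum3. The widest differences were in *Phgdh* (95.1, 93.6, 12.8, 79.8 and 104 FPKM) and *Psat1* (28.5, 68.5, 8.63, 39.4 and 63.6 FPKM), which make serine. *Nupr1*, a stress gene of the same list, was instead highest in Lum3, at 55.0, 58.8, 238, 33.4 and 57.5 FPKM. *Atf4* itself was at 332, 286, 245, 314 and 293 FPKM. Of the mitochondrial translation partners, 12 of 14 were lowest in Lum3 (median difference -0.76). Of the tRNA editing and maturation genes 5 of 8 were (-0.48), which is near the share of all genes. The cytosolic elongation factors bring charged tRNA to the ribosome and move it along. Of these 5 genes, 2 were lowest in Lum3, also near the share of all genes, *Eef1g* with a difference of -0.56 and *Eef1b2* with -0.46. The median difference was -0.01, and *Eef2* was at 1366.7, 1400.6, 1464, 1546 and 1395 FPKM. The lower milk and proliferation genes of Lum3 moved in the same direction as the synthetases (10 of 10 proliferation genes and 6 of 7 milk genes were lowest in Lum3), and their part in the result was not tested.

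Among the libraries other than Lum3, the cytosolic and mitochondrial genes parted in Lum2. There 11 of 20 cytosolic genes reached their highest value of the 5 libraries, but 0 of 15 mitochondrial genes did, against 16% of all genes tested. Of the 12 genes listed as Atf4-responsive 8 were highest in Lum2 (*Aars*, *Cars*, *Gars*, *Iars*, *Lars*, *Nars*, *Tars* and *Yars*), and of the 8 other cytosolic genes 3 (*Farsa*, *Hars* and *Rars*). Since the list was chosen with earlier results of these data known, this contrast is a description only. The median difference between Lum2 and the mean of Lum1, Lum4 and Lum5 was 0.25 on the log2(FPKM + 1) scale over the responsive genes, 0.07 over the other cytosolic genes, -0.23 over the mitochondrial genes and -0.07 over all genes tested. After median-of-ratios scaling 13 cytosolic and 0 mitochondrial genes were highest in Lum2, and after quantile normalization 14 and 0. Of the mitochondrial genes 9 of 15 had their highest value in Lum5, against 21.2% of all genes tested.

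Among cytosolic genes the differences between Lum2 and the mean of Lum1, Lum4 and Lum5 were widest upward for *Cars*, *Gars*, *Rars*, *Nars*, *Aars* and *Iars*, at 0.69, 0.52, 0.43, 0.39, 0.38 and 0.38. *Cars* was at 17.7, 26.5, 11.3, 14.6 and 15.9 FPKM in Lum1 to Lum5, so that Lum2 was above every other library. *Aars* (alanine) was at 34.3, 46.6, 21.8, 31.0 and 42.3 FPKM, with Lum5 close behind Lum2. In *Aars*, 14.3% of exonic bases overlap *Exosc6* on the same strand, which was at 15.97, 12.2, 8.20, 13.6 and 14.3 FPKM and did not peak in Lum2. *Rars*, which is not on the list of responsive genes, was at 44.0, 58.1, 23.2, 39.3 and 45.6 FPKM. *Vars* ran the other way, with a difference of -1.44, and of the 15 mitochondrial genes tested *Lars2* alone was above, by 1.57.

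Of the Atf4 targets that are not synthetases, 10 of 22 were highest in Lum2, against 16% of all genes tested, with a median difference of 0.18. *Chac1*, which breaks down glutathione, was at 5.47, 19.4, 4.02, 6.30 and 5.42 FPKM, *Mthfd2*, a mitochondrial folate enzyme, at 5.45, 18.8, 3.92, 6.92 and 6.15 FPKM, and *Asns* at 22.4, 45.9, 14.6, 28.2 and 27.7 FPKM. All 3 were highest in Lum2 by a margin wider than the range of Lum1, Lum4 and Lum5. *Atf4* mRNA was not (difference -0.13), nor was *Ddit3* (-0.34), whose exons overlap those of *Mars* by 68 bases on the opposite strand. Lum2 also held the highest level of most markers of other cells, 3 of 4 tested fibroblast genes, 3 of 4 immune genes and 3 of 3 basal genes, with *Col1a1* at 34.4 FPKM against 0.694 to 10.9 and *Lyz2* at 213 FPKM against 1.04 to 28.7. Their part in the Lum2 values was not tested. Since Lum2 was singled out by its values and is 1 library, no test was made.

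**Figure D4:**
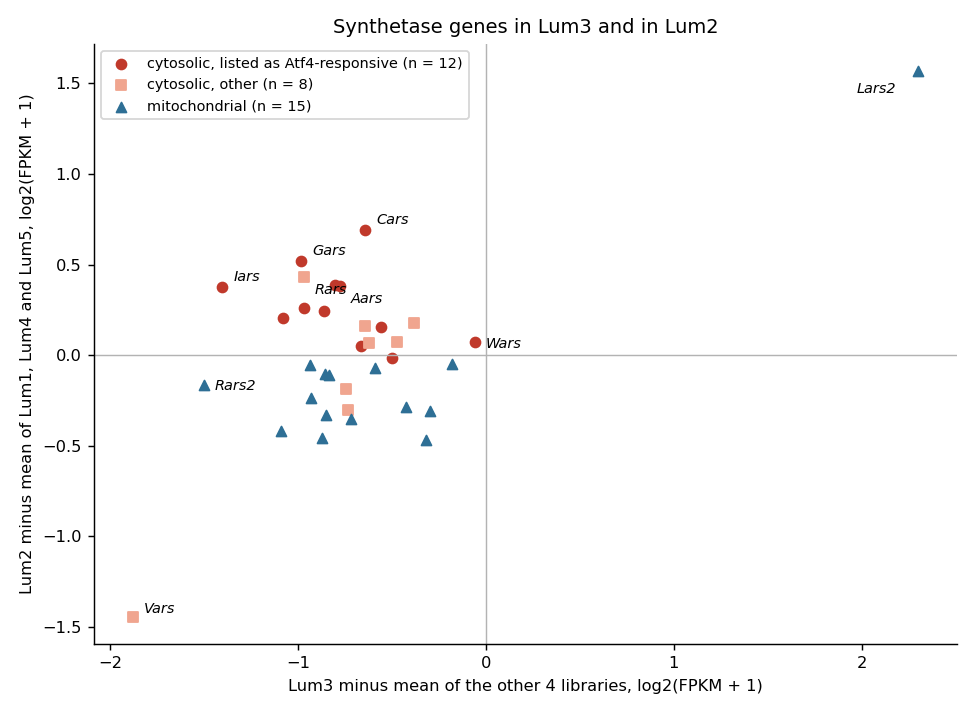
For each of the 35 members with a mean of at least 1 FPKM, the difference between Lum3 and the mean of the other 4 libraries (horizontal) and between Lum2 and the mean of Lum1, Lum4 and Lum5 (vertical), both on the log2(FPKM + 1) scale; the axes share libraries, so no relation between them is read. Most genes lie left of 0, with circles (cytosolic, listed as Atf4-responsive) mostly above and triangles (mitochondrial) below the horizontal line except *Lars2*.

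Between the genotype labels, no synthetase gene passed the test. limma on log2(FPKM + 1) with Benjamini-Hochberg adjustment called 0 of 11481 genes higher (0%) and 0 lower (0%) in the libraries labelled *Brca1* knockout, with 372 genes at an unadjusted p under 0.05 and a smallest adjusted p of 0.92. The adjusted p of the 35 members ranged from 0.92 to 0.996, and 1 member, *Vars*, was under 0.05 before adjustment. With library weights, and with single libraries left out, the number of genes called was at most 14, and 0 members were among them. The median level of the cytosolic genes differed by 0.17 between the label means and that of the mitochondrial genes by 0.31, but without Lum3 the differences were -0.12 and -0.06. The mean of the libraries labelled *Brca1* knockout was above that of wild type for 18 of 20 cytosolic and 14 of 15 mitochondrial genes (65.5% of all genes tested), and without Lum3 for 8 of 20 and 11 of 15 (55.0%).

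*Vars* (valine), whose enzyme is bound to elongation factor eEF1 in the cytosol, had the widest difference of the set. It was at 48.1, 24.1 and 13.5 FPKM in Lum1, Lum2 and Lum3, and at 89.5 and 70.7 FPKM in Lum4 and Lum5. Both libraries labelled *Brca1* knockout were above all 3 labelled wild type, which were themselves spread over more than 3-fold. The log2 fold change was 1.62 (SE 0.52, unadjusted p of limma 0.024, adjusted p = 0.92 after Benjamini-Hochberg), and 1.20 without Lum3. *Vars* lies in the class III region of the major histocompatibility complex (ENSMUSG00000007029, GRCm38 chr17:35000987-35016322, plus strand). Of its 5 nearest protein-coding neighbours in the table on each side, 7 of 10 had a mean of at least 1 FPKM. Of these 7, 0 separated the labels in either direction, against 17.5% (higher) and 5.77% (lower) of all genes tested. With 7 genes, 0 is near those shares and is not read as a result about the region. The adjacent *Lsm2* was at 20.7, 15.7, 7.14, 15.5 and 14.97 FPKM, and *Hspa1a* at 1138, 575, 517, 738 and 359 FPKM. *Vars2*, the mitochondrial counterpart, was at 5.44, 4.35, 2.52, 5.06 and 6.81 FPKM, and its groups overlapped.

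In all, 8 of 35 members had both libraries labelled *Brca1* knockout above all 3 labelled wild type, against 17.5% of all genes tested, and 0 had both below, against 5.77%. The 8 were *Kars* and *Vars* of the cytosolic set and *Aars2*, *Cars2*, *Iars2*, *Nars2*, *Tars2* and *Wars2* of the mitochondrial set. A member lowest in Lum3, as 32 of the 35 were, could not have both below. *Iars2* was at 20.5, 18.1 and 10.2 FPKM against 26.1 and 27.6 FPKM (log2 fold change 0.74, SE 0.32). *Tars2* was at 11.4, 9.24 and 6.48 FPKM against 12.1 and 12.7 FPKM (0.44, SE 0.26). In *Aars2* the groups were separated by little more than rounding, with 4.48 FPKM in both Lum1 and Lum4. Without Lum3 the same 8 genes were higher, against 23.9% of 11310 genes. Each of the 8 was lowest in Lum3, so leaving Lum3 out could not undo this. *Cars*, *Hars*, *Qars*, *Tars* and *Wars*, all cytosolic, were then lower in both libraries labelled *Brca1* knockout, against 15.2% of the 11310 genes. *Tars* was at 33.9 and 37.9 FPKM in Lum1 and Lum2 against 29.9 and 30.7 FPKM, while its mitochondrial counterpart *Tars2* was higher. Of the markers of proliferation, 8 of 10 were higher in both libraries labelled *Brca1* knockout, and of the mitochondrial translation partners 6 of 14. None of either list passed the limma test, and all 10 markers of proliferation were lowest in Lum3. Their part in the synthetase values was not tested.

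**Figure D5:**
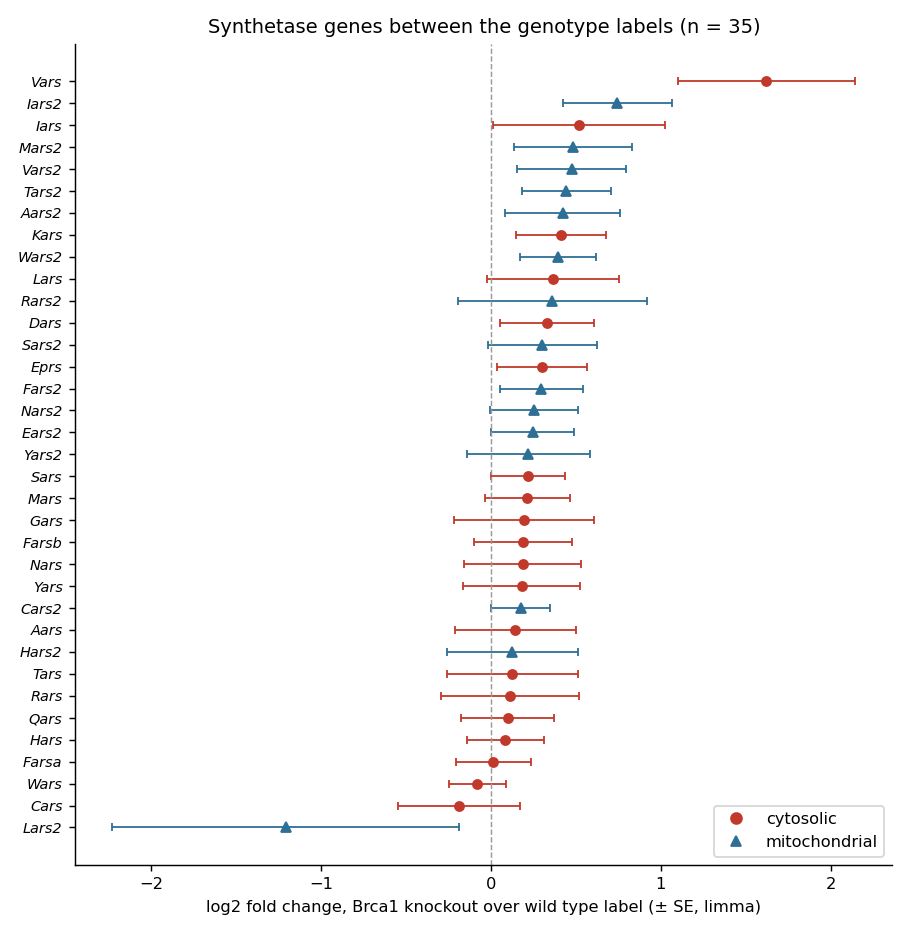
log2 fold change on the log2(FPKM + 1) scale between the libraries labelled *Brca1* knockout (n = 2) and wild type (n = 3) with its SE from limma, for 35 members ordered by fold change. *Vars* is at 1.62, *Lars2* at -1.21 with the widest error, and the others lie between -0.19 and 0.74.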

How the data were processed

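Total RNA of 5 sorted luminal samples was made into libraries with the NEBNext Ultra RNA kit. The authors aligned reads to mm10 and quantified genes with Cufflinks, and the deposited table gives the FPKM of each library without counts or read totals. The submitters' processing notes list Trimmomatic 0.35, TopHat2 2.0.13 and Cufflinks 2.2.1, while the study's methods name another TopHat release. The annotation and the strand setting are not given in the sources used here.

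Of 24346 rows, 27 with names turned into dates were left out. Genes that averaged 1 FPKM or more (11481) were tested as log2(FPKM + 1) with limma 3.58.1 (lmFit, eBayes with a trend, R 4.3.3) and Benjamini-Hochberg adjustment at a threshold of 0.05. Changes of low genes come out too small on this scale. For 873 single-transcript genes, FPKM times length was compared with whole multiples of 1 step, at 134 to 210 low values per library. Of these, 52.8% to 60.4% lay within 0.15 of a whole multiple. The step was the best-fitting one for each library, so the 30% of a fixed step is not its chance level. Reads were not recovered, and the depth is unknown. A label difference in a single value was not tested by permutation, since 3 against 2 libraries cannot give a two-sided exact p below 0.2.

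Libraries were grouped by genotype label. All 36 members are reported, with genes of lists for the scaffold, Atf4 targets, elongation, mitochondrial translation, tRNA editing, interferon and cell types. The members and lists were chosen with earlier results of these data known, and support nothing beyond description. Coordinates are those of GENCODE M21 (GRCm38, which is mm10). Alternatives were a pseudocount of 0.1, no filter, other scalings and fits, and each library left out. Scripts ran on scipy 1.17.1, pandas 2.3.3, numpy 2.4.6 and Python 3.11.15.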

Additional observations from a re-analysis of the deposited data

Results flagged for a closer look

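With the 5 luminal libraries taken as 1 group, a value was singled out where its gap to the nearest other library exceeded the 95% limit of Dixon's test for 5 samples (0.71 of the whole range). Of 39 items examined, 11 did so (28.2%), and 13% of all genes tested passed the same limit. The items were the members, their set medians and the difference of these medians. All were read in the same 5 libraries and are not independent, so no number expected by chance is given. All 11 were Lum3 as the lowest library. Values are log2(FPKM + 1). Among cytosolic genes, *Dars* was at 4.14 in Lum3 (nearest other library 4.75), *Hars* at 4.69 (5.10), *Lars* at 3.66 (4.58), *Qars* at 5.93 (6.44), *Sars* at 5.24 (5.70) and *Tars* at 4.12 (4.95). Among mitochondrial genes, *Aars2* was at 1.48 (2.24), *Nars2* at 1.61 (2.15) and *Sars2* at 2.55 (3.33). The cytosolic median was at 4.26 (4.98) and the mitochondrial median at 1.99 (2.997). The difference between these medians was not among them. Lum3 also had the lowest milk and proliferation medians and the highest mature luminal median, and their part in these values was not tested.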

How the results depend on the processing

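Of the recomputed comparisons, 56 kept their direction and stayed within 1 SD of the value reported (counts within 1.5 times), 14 moved further, and 2 turned direction within that limit. The 2 were the label differences of the cytosolic and mitochondrial medians, -0.12 and -0.06 without Lum3. For these the SD was 0.41 and 0.53, wider than the differences reported, 0.17 and 0.31, so the limit was a loose one. Some of the 56 could not have changed, since a pseudocount alters neither the overlap of groups nor the sign of a pair. For single genes, 53 kept their direction and 2 reversed, both for *Brca1*, whose log2 fold change was -0.013 with library weights and -0.029 without wild type replicate 3 (Lum3), within a range of -0.029 to 0.43 with 1 library left out. The causes were not tested. The difference between the cytosolic and mitochondrial medians was 2.21 with a pseudocount of 0.1 and 1.99 to 2.07 with 1 library left out. Median differences of Lum3 were -0.47 (cytosolic) and -0.60 (mitochondrial) with median-of-ratios scaling and -0.59 and -0.65 with quantile normalization. Members higher in every library labelled *Brca1* knockout numbered 5 with quantile normalization and 8 to 16 with 1 library left out (14, 15 and 16 without Lum1, Lum2 and Lum4). Members lower in every such library numbered 1 with each scaling and 0 to 5 with 1 library left out (1, 5 and 2 without Lum1, Lum3 and Lum5). Without Lum4 or Lum5, only 1 library carried the *Brca1* knockout label. With fewer libraries, groups separate more easily. Shares over all genes were computed for the left-out settings only without Lum3 (23.9% higher and 15.2% lower). The other counts are therefore not read as results about the members. With 1 library left, a label's spread was taken from the other. Log2 fold changes with 1 library left out were 1.20 to 2.08 for *Vars*, 0.46 to 0.93 for *Iars2*, 0.21 to 0.58 for *Kars* and -2.24 to -0.17 for *Lars2*. limma called 1 gene with library weights, 2 without Lum1, 14 without Lum4 and 4 without Lum5, and 0 members in any setting. The 11 pairs with a higher cytosolic gene numbered 11 in each setting with 1 library left out, which can raise that number but not lower it. No paired analysis was possible because the labels number the libraries in a single series, Lum1 to Lum5, so that no number is shared between the groups, and the replicate numbers used here only name libraries. The planned weighting of amino acids by protein sequence was not run, since no protein table was at hand.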
